A study of Homo sapiens with 4 samples.

Results

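The 10 genes described here carry out the uptake, storage, export and sensing of iron: TFRC, STEAP3, SLC11A2, SLC39A14, FTH1, FTL, NCOA4, SLC40A1, ACO1 and IREB2. They were taken by symbol from a table of 61806 genes, and all 10 were found there. Poly(A)-selected RNA was sequenced from JJ012, a human chondrosarcoma (cartilage-forming tumour) line, and 143B, a human osteosarcoma (bone-forming tumour) line. Both lines were held in suspension, away from a surface to attach to, and each was either left untreated or given 1 mM melatonin for 72 h. Each of the 4 conditions is 1 library of 1 established line, so no spread between cultures could be measured and no test within a line or between the lines was made. The intervals printed below cover counting error only. In the table, the columns whose names end in T were read as the melatonin libraries.

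Cells take up most iron as transferrin, which TFRC carries into endosomes, where STEAP3 reduces the metal and SLC11A2 passes it to the cytosol. SLC39A14 takes up iron that is not bound to transferrin, ferritin (FTH1 and FTL) stores what is not used, NCOA4 takes ferritin to the lysosome to release it, and SLC40A1 is the exporter. The iron regulatory proteins ACO1 and IREB2 bind a hairpin, the iron-responsive element, when iron is scarce: in a 5′ untranslated region (UTR) this blocks translation of ferritin and SLC40A1, and in the 3′ UTR of TFRC it protects the mRNA. A change in iron can therefore alter ferritin protein with little change in its mRNA, and only mRNA was measured here.

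These hairpins are shown because they tie the storage, export and uptake genes to the same sensors. The search looked in the sense strand of the longest protein-coding GENCODE 29 transcript of each gene (GRCh38) for a C, 5 bases, the loop CAGTGN and 5 bases that pair fully with the first 5. Capitals mark the 6-base loop, and each stretch of 30 bases is written 5′ to 3′ on the strand of its gene.
FTH1 5′ UTR, chr11:61967573-61967602, minus strand: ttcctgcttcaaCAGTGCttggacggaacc
FTL 5′ UTR, chr19:48965335-48965364, plus strand: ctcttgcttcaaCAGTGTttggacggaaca
SLC40A1 5′ UTR, chr2:189580660-189580689, minus strand: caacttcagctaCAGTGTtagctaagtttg
TFRC 3′ UTR, chr3:196050978-196051007, minus strand: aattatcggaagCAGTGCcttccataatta
TFRC 3′ UTR, chr3:196050574-196050603, minus strand: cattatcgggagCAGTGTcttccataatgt
TFRC 3′ UTR, chr3:196050509-196050538, minus strand: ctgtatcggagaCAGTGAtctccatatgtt
TFRC 3′ UTR, chr3:196050462-196050491, minus strand: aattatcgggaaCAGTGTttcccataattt
The pattern occurred in 4 of the 10 genes, with 7 matches in all, and in 259 of the 19608 protein-coding genes searched (1.32%). The ferritin matches lay near the start of the transcript, at bases 59 to 88 of FTH1 and 35 to 64 of FTL, ahead of coding sequences that began at bases 236 and 208. In TFRC all 4 matches lay beyond the end of the coding sequence at base 2450. These are matches of letters, and the other 6 genes simply did not hold these letters in the transcript searched.

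**Figure D1:**
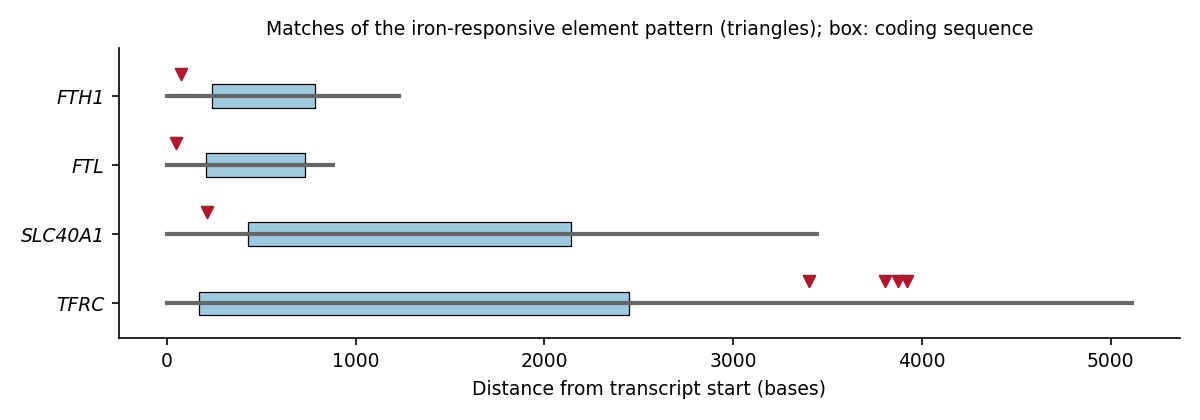
Position of each match of the iron-responsive element pattern (triangles) along the longest protein-coding transcript, in bases from its start, for the 4 genes with a match. Lines are transcripts and boxes are coding sequences. The single match in FTH1, FTL and SLC40A1 precedes the box, and the 4 matches in TFRC follow it.

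The libraries held 15889564 to 19218343 counted reads, and 13198 to 14477 genes reached 1 FPKM (counts per kilobase of exon, scaled to the library total). The defining cartilage genes COL2A1 and ACAN stayed at or below 0.11 FPKM in the 4 libraries, and SOX9 was as high in the 143B control (15.5 FPKM) as in the JJ012 control (15.1 FPKM). The bone marker list (8 genes) summed to 107 and 68.3 FPKM in JJ012 and to 6.97 and 5.08 FPKM in 143B (control, then melatonin). SPP1 alone was at 79.4 FPKM in the JJ012 control and 0.40 in the 143B control. RUNX2 and BGLAP were higher in the 143B control, at 4.28 and 1.44 FPKM against 3.02 and 0.81 in the JJ012 control. The cartilage list (6 genes) summed to 38.9 and 9.76 FPKM in JJ012 and to 16.25 and 12.5 FPKM in 143B. COL11A1, on that list, was at 22.9 FPKM in the JJ012 control and 0.00 in both 143B libraries. These markers thus followed the tumour types of the labels only in part. RUNX2 was at 2.59 to 4.28 FPKM in the 4 libraries. In JJ012 several matrix and lineage genes were lower with melatonin: COL11A1 at 22.9 and 3.24 FPKM, SOX9 at 15.1 and 6.16, COL1A1 at 10.9 and 0.77 and COL1A2 at 12.5 and 0.14. Their part in the JJ012 results below was not tested. Markers of red cells and macrophages, which handle much of the body's iron, stayed below 1 FPKM for 6 of 6 genes in each library. In bulk RNA, a level that is lower in every cell and one that is lost from part of the cells cannot be told apart.

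Ferritin RNA dominated the group in both lines, while the order of the uptake genes differed between them. Per length of exon, FTL was highest in each of the 4 libraries, FTH1 next and STEAP3 after it, and SLC40A1 was lowest. Between these, SLC39A14 followed STEAP3 in both JJ012 libraries, where TFRC stood above SLC40A1 alone. In both 143B libraries TFRC held the place after STEAP3, and SLC39A14 came below NCOA4. The order of the neighbours ACO1 and IREB2 depends on the length used: in FPKM they changed places between libraries, and per longest transcript IREB2 was above ACO1 in all 4. FPKM divides by the exonic length in the table, which for TFRC is 17376 bases against 5111 bases in its longest protein-coding transcript. A level of TFRC relative to other genes is therefore lower on this scale than per transcript length, whereas its ratios between libraries do not depend on the length. The place of TFRC in the order, such as below STEAP3 in 143B, thus also depends on the length used.

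**Figure D2:**
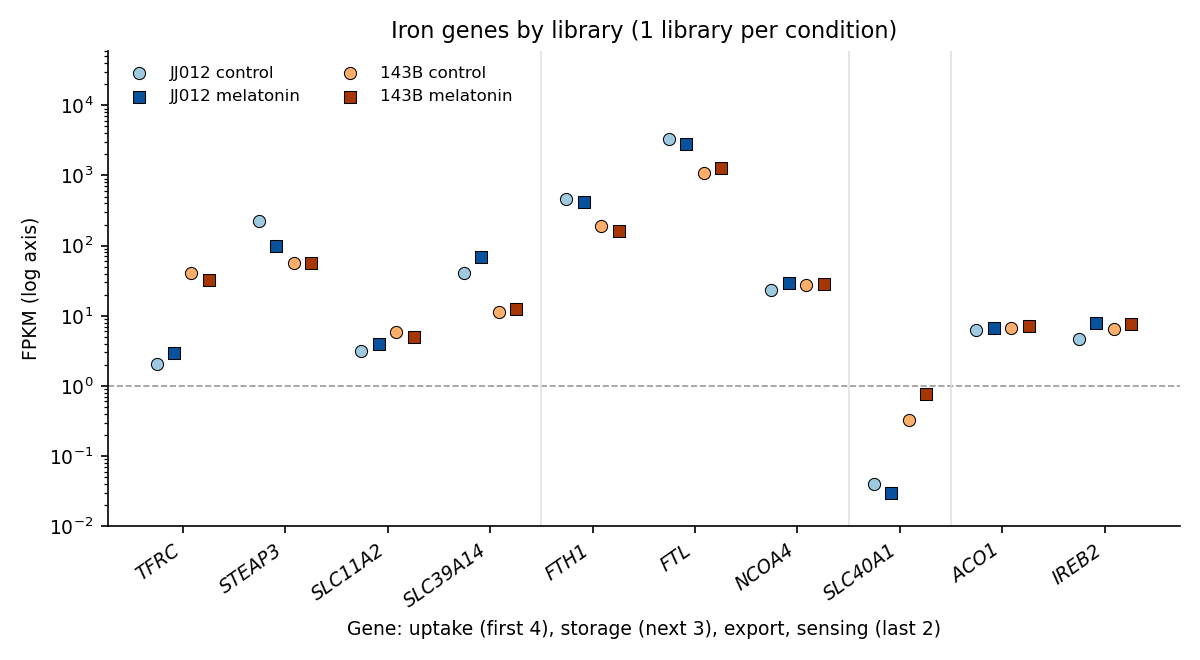
Level of each of the 10 genes in FPKM (log axis) in the 4 libraries, 1 point per library. Circles are control and squares melatonin libraries, blue is JJ012 and orange 143B, and the dashed line marks 1 FPKM. TFRC stands at 2.04 and 2.97 FPKM in JJ012 and at 40.45 and 32.03 FPKM in 143B, and SLC40A1 lies below the dashed line in every library.

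A gene was compared between 2 libraries if it reached 1 FPKM in at least 1 of them, and was called higher or lower at a log2 fold change of 0.58, about 1.49-fold, computed as log2 of FPKM + 1. This fold change understates differences of weakly expressed genes, so the fold in CPM, the count as a share of the library total, is given with its exact 95% counting interval. The comparisons ask how the 10 genes differed between the melatonin and control libraries of each line and between the untreated lines. SLC40A1 failed the filter in all 3 comparisons, which leaves 9 genes compared in each.

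In JJ012, melatonin went with lower STEAP3, the ferrireductase, and with higher SLC39A14, an importer, and IREB2, a sensor. That is, 2 of the 9 genes were higher and 1 was lower. Among all 15794 genes compared in JJ012, 19.6% were called higher and 18.6% lower, and of protein-coding genes 33.9% were called in either direction, so the number of calls was near the background. The median log2 fold change was 0.26 over the 9 genes and 0.01 over all genes compared. In 143B none of the 9 genes was called, at a background of 6.09% higher and 6.65% lower among 14135 genes and 6.09% in either direction among protein-coding genes. Their median was 0.06 in 143B, against 0.03 for all genes compared.

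More of the 9 genes were called between the untreated lines than with melatonin in either line, as was true of all genes compared. TFRC and SLC11A2 were higher in 143B than in JJ012, and STEAP3, SLC39A14, FTH1 and FTL were lower, which makes 2 higher and 4 lower of 9. The background was high here too, with 27.4% of 16929 genes called higher and 41.3% lower, and 64.6% of protein-coding genes called in either direction. The number of calls was therefore near the background here as well. The median was 0.08 over the 9 genes and -0.29 over all genes compared. This comparison uses the same control libraries as the melatonin comparisons, so it is not independent of them. The melatonin libraries of the 2 lines share no library with it and placed TFRC higher and the same 4 genes lower in 143B, whereas SLC11A2 did not reach the threshold there.

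**Figure D3:**
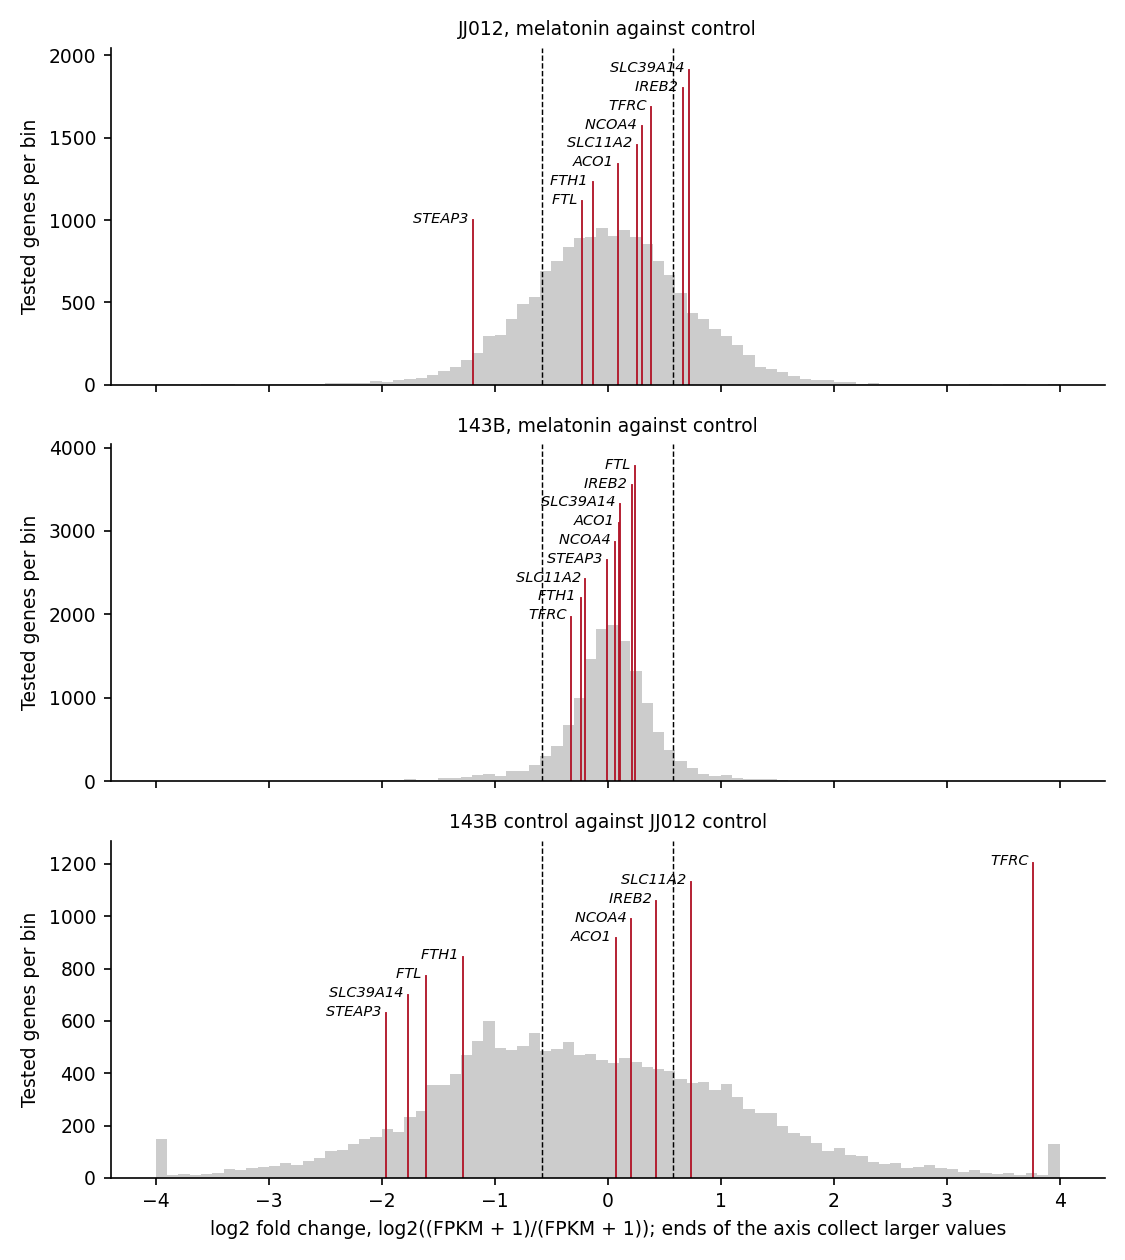
Number of genes per bin of log2 fold change (grey bars, bins 0.1 wide, larger values collected in the end bins) in each comparison, with the 9 compared iron genes marked by red lines and the threshold of 0.58 by dashed lines. The heights of the red lines only separate the names. STEAP3 lies far to the left in JJ012, none of the 9 passes a dashed line in 143B, and TFRC lies at the right-hand end in the comparison of the untreated lines.

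TFRC (ENSG00000072274, chr3:196012511-196082153, minus strand), the transferrin receptor, had the widest difference between the lines among the 9 genes. It was at 2.04 FPKM (681 counts) in the JJ012 control and 2.97 FPKM (833 counts) in the JJ012 melatonin library. In 143B it was at 40.45 FPKM (11168 counts) in the control and 32.03 FPKM (9552 counts) in the melatonin library. Both 143B libraries stood above both JJ012 libraries without overlap. In CPM the 143B control was 19.8-fold higher than the JJ012 control (18.4 to 21.5), and between the melatonin libraries the fold was 10.8 (10.05 to 11.59). The log2 fold change of 3.77 lay at percentile 99.1 of all genes compared, and the level itself moved from percentile 21.8 among genes at 1 FPKM or more in the JJ012 control to 93.7 in the 143B control. With melatonin the log2 fold change was 0.39 in JJ012 and -0.33 in 143B, both short of the threshold, and the JJ012 value was 0.03 with the trend of fold change with gene length removed. On the count scale the fold was 1.46 upward in JJ012 (1.31 to 1.61) and 1.26 downward in 143B (1.23 to 1.30), so the counting intervals left out no change in both lines, in opposite directions.

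STEAP3 (ENSG00000115107, chr2:119223831-119265652, plus strand), which reduces ferric iron released from transferrin, was the only one of the 10 called lower with melatonin. It was at 227 FPKM (19892 counts) in the JJ012 control and 98.7 FPKM (7265 counts) in the JJ012 melatonin library. The 143B libraries held 57.4 FPKM (4163 counts) in the control and 57.3 FPKM (4485 counts) with melatonin. The JJ012 control library thus stood above the other 3, and the 143B pair was nearly level. In JJ012 the log2 fold change was -1.19, at percentile 3.84 of all genes compared, and the CPM was 2.30-fold lower (2.24 to 2.36). In 143B the log2 CPM ratio was -0.0039 (-0.07 to 0.06). Between the untreated lines STEAP3 was 3.95-fold lower in 143B (3.82 to 4.09), and between the melatonin libraries 1.72-fold lower.

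SLC11A2 (ENSG00000110911, chr12:50979401-51028566, minus strand), the divalent metal transporter of the endosome, was weakly expressed throughout. Its level was 3.14 FPKM (596 counts) in the JJ012 control and 3.95 FPKM (630 counts) in the JJ012 melatonin library. In 143B the values were 5.89 FPKM (926 counts) and 5.01 FPKM (851 counts). The lines did not overlap, but the gap was narrower with melatonin. With melatonin the log2 fold change was 0.26 for JJ012 and -0.20 for 143B, neither called, with CPM 1.26-fold up and 1.18-fold down. The direction in JJ012 turned to -0.04 once the length trend was removed. The untreated 143B library was 1.88-fold above the JJ012 control (1.69 to 2.09), whereas the melatonin libraries differed 1.27-fold, a log2 fold change of 0.28.

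SLC39A14 (ENSG00000104635, chr8:22367278-22434129, plus strand), the importer of iron that is not carried by transferrin, had the opposite pattern to TFRC between the lines. It was at 41.2 FPKM (5471 counts) in the JJ012 control and 68.7 FPKM (7664 counts) in the JJ012 melatonin library. The 143B control and melatonin libraries held 11.4 FPKM (1249 counts) and 12.4 FPKM (1468 counts). Both JJ012 libraries were above both 143B libraries. The rise with melatonin in JJ012 was 0.72 on the log2 scale, at percentile 85.6, and 1.67-fold in CPM (1.61 to 1.73). With the length trend removed it was 0.5804, barely past the threshold of 0.58. In 143B the log2 fold change was 0.11, with a 1.09-fold CPM ratio. Untreated 143B was 3.62-fold lower than JJ012 (3.41 to 3.85), and with melatonin on both sides 5.55-fold lower. Per length, there were 0.0495 TFRC fragments for 1 SLC39A14 fragment in the JJ012 control and 3.55 in the 143B control, or 0.113 and 8.12 with the longest protein-coding transcripts as lengths.

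Of 13 other uptake and reduction genes, 5 were compared in JJ012, 6 in 143B and 6 between the untreated lines. Between the untreated lines 3 were higher in 143B and 1 was lower, beside 27.4% and 41.3% of all genes compared. The widest apart was MELTF, with 15 counts in the JJ012 control and 731 in the 143B control (log2 fold change 1.97). TF, which encodes transferrin, HFE, its receptor's partner, and TFR2, a related receptor, were below 1 FPKM in the 4 libraries. STEAP4, a further reductase, had 157 and 13 counts in the JJ012 control and melatonin libraries, and SCARA5, a ferritin receptor, had 78 and 29. Both were at 0 counts in 143B, below 1 FPKM in JJ012 and outside the comparison. The ferric reductase CYBRD1 was at 30.5 and 36.7 FPKM in JJ012 and 16.1 and 16.4 FPKM in 143B (control, then melatonin), lower in untreated 143B by 0.88 on the log2 scale. STEAP2, at 1.61 and 3.89 FPKM in JJ012, was called higher with melatonin there (log2 fold change 0.91). STEAP1 in 143B was at 5.95 and 3.58 FPKM and was called lower (-0.60). SLC39A8, the nearest relative of SLC39A14 as a metal importer, was not called, at 2.61 to 3.66 FPKM in the 4 libraries.

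FTH1 (ENSG00000167996, chr11:61959718-61967634, minus strand), the ferritin heavy chain that oxidises iron for storage, was among the most abundant RNAs of both lines. It was at 466 FPKM (17941 counts) in the JJ012 control and 424 FPKM (13733 counts) in the JJ012 melatonin library. In 143B it was at 191 FPKM (6088 counts) in the control and 162 FPKM (5560 counts) with melatonin. Even the lowest of these, in 143B, lay at percentile 98.8 of genes at 1 FPKM or more. The melatonin libraries gave a log2 fold change of -0.13 for JJ012 and of -0.24 for 143B, neither called, and the JJ012 value took the other sign, 0.14 and 0.20, on the TPM scale and with the length trend removed. Untreated 143B was 2.44-fold lower than JJ012 (2.37 to 2.51), a log2 fold change of -1.28 that became -0.40, under the threshold, with the length trend removed.

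FTL (ENSG00000087086, chr19:48965309-48966879, plus strand), the light chain that helps the mineral core form, stood at the top of the group. It was at 3268 FPKM (54700 counts) in the JJ012 control and 2794 FPKM (39291 counts) in the JJ012 melatonin library. In 143B the values were 1069.9 FPKM (14807 counts) and 1262 FPKM (18864 counts). JJ012 lay above 143B without overlap, 3.05-fold between the controls (3.00 to 3.11) and 2.21-fold between the melatonin libraries. The log2 fold change between the controls, -1.61, was -0.84 with the length trend removed. The melatonin log2 fold changes, -0.23 in JJ012 and 0.24 in 143B, were both under the threshold. In JJ012 this value turned to 0.05 on the TPM scale and 0.09 with the length trend removed.

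The 2 ferritin chains did not keep 1 ratio across the libraries. Per length of exon, there were 7.01 FTL fragments for 1 FTH1 fragment in the JJ012 control and 6.58 in the JJ012 melatonin library. In 143B there were 5.60 in the control and 7.81 with melatonin. Written the other way, FTH1 per FTL was 0.143 (0.1402 to 0.1450), 0.152 (0.149 to 0.155), 0.179 (0.173 to 0.184) and 0.128 (0.124 to 0.132), in the same order of libraries. The counting intervals of the 4 did not overlap, and the ratio went up in JJ012 and down in 143B with melatonin. With the longest protein-coding transcripts as lengths the ratios were 0.234, 0.250, 0.294 and 0.211, which leaves the order unchanged and moves the level. TFRC against FTH1 separated the lines further, with 228 and 143 FTH1 fragments per length for 1 TFRC fragment in JJ012 and 4.73 and 5.05 in 143B (control, then melatonin). With transcript lengths these were 109.6 and 68.6 in JJ012 and 2.27 and 2.42 in 143B.

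Both ferritin genes have many processed copies, and how reads that match several places were counted is not given in the sources used here. The 25 annotated FTH1 pseudogenes summed to 33 to 104 counts per library, at most 0.714% of FTH1 and pseudogene counts together, and FTH1P2 had the most, 46 in the JJ012 control. The 16 annotated FTL pseudogenes summed to 21 and 32 counts in JJ012 and 67 and 66 in 143B, at most 0.450%. FTLP15 alone held 52 and 47 of those in 143B and 0 in both JJ012 libraries. The ferritin levels are uncertain to the extent that reads shared with these copies were left out or split.

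NCOA4 (ENSG00000266412, chr10:46005088-46030623, minus strand), the receptor that takes ferritin for breakdown, was not called in any of the 3 comparisons. It was at 23.3 FPKM (1782 counts) and 28.8 FPKM (1857 counts) in the JJ012 control and melatonin libraries. In 143B it was at 27.0 FPKM (1712 counts) and 28.3 FPKM (1937 counts). The JJ012 control was lowest and the other 3 lay close together. The log2 fold changes were 0.30 and 0.06 with melatonin in JJ012 and 143B and 0.21 between the untreated lines. On the TPM scale the values in JJ012 and between the lines reached 0.58 and 0.59, past the threshold, and with the length trend removed the value between the lines was 0.73. HERC2, a ligase that marks NCOA4 for breakdown, was at 2.65 and 4.61 FPKM in JJ012, called higher with melatonin (0.62), and at 4.44 and 4.92 FPKM in 143B. The cytosolic iron chaperones PCBP1, at 64.3 to 78.1 FPKM, and PCBP2, at 24.9 to 33.2 FPKM, were not called in the 3 comparisons, and the mitochondrial ferritin FTMT was listed at 0 in the 4 libraries.

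SLC40A1 (ENSG00000138449, chr2:189560590-189583758, minus strand), or ferroportin, the one known cellular exporter of iron, was close to the limit of detection. It had 3 counts in the JJ012 control and 2 in the JJ012 melatonin library, 0.04 and 0.03 FPKM. The 143B libraries gave 22 counts without and 55 with melatonin, 0.33 and 0.76 FPKM. The JJ012 libraries are at or under the floor of 3 counts, which is 0.156 to 0.189 CPM in these libraries. In 143B the CPM ratio of melatonin to control was 2.31 (1.39 to 3.99), below the expression filter and so not called. Untreated 143B was 8.87-fold above the JJ012 control on the basis of 22 and 3 counts (2.66 to 46.3), and the melatonin libraries, with 55 and 2 counts, gave 25.9 (6.83 to 219). The ferroxidases that work with the exporter, HEPH, HEPHL1 and CP, were below 1 FPKM in the 4 libraries, and HAMP, its hormone inhibitor, had 1 count in all.

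ACO1 (ENSG00000122729, chr9:32384603-32454769, plus strand), iron regulatory protein 1, which serves as an aconitase when it holds an iron-sulfur cluster, had the narrowest range of the group. It was at 6.21 FPKM (901 counts) and 6.68 FPKM (815 counts) in JJ012 and at 6.60 FPKM (792 counts) and 7.16 FPKM (929 counts) in 143B, control first. The log2 CPM ratios were 0.11 (-0.03 to 0.25) in JJ012, 0.12 (-0.02 to 0.26) in 143B and 0.09 (-0.05 to 0.23) between the untreated lines. All 3 intervals include 0, so with scaling to library totals no difference exceeded counting error. This depends on the scaling. Between the untreated lines the log2 fold change of 0.08 became 0.33 to 0.45 with median centring, TPM, TMM or DESeq2 size factors, still under the threshold. In JJ012 the log2 fold change of 0.09 became 0.37 on the TPM scale and -0.12 with the length trend removed.

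IREB2 (ENSG00000136381, chr15:78437431-78501453, plus strand), iron regulatory protein 2, differed from ACO1 in JJ012. It was at 4.60 FPKM (954 counts) in the JJ012 control and 7.88 FPKM (1374 counts) with melatonin. In 143B the values were 6.55 FPKM (1125 counts) and 7.74 FPKM (1435 counts). The JJ012 control was the lowest of the 4, and the melatonin libraries were nearly level. The rise in JJ012 was 0.67 on the log2 scale, at percentile 83.6, and 1.71-fold in CPM (1.58 to 1.86), and with the length trend removed it was 0.34, under the threshold. In 143B the log2 fold change was 0.21, not called. The untreated lines differed by 0.43, under the threshold, which became 0.68 to 0.85, past it, with median centring, TPM, TMM or DESeq2 size factors and 0.29 with the length trend removed. The melatonin libraries differed by -0.02. Per length of exon, IREB2 per ACO1 went from 0.740 (0.675 to 0.812) to 1.18 (1.08 to 1.29) with melatonin in JJ012 and from 0.993 (0.906 to 1.09) to 1.08 (0.994 to 1.17) in 143B. With the longest transcripts as lengths it went from 1.24 to 1.98 in JJ012 and from 1.67 to 1.82 in 143B. FBXL5, which marks IREB2 for breakdown when iron is plentiful, was not called, at 10.03 and 13.93 FPKM in JJ012 and 11.04 and 10.32 FPKM in 143B.

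**Figure D4:**
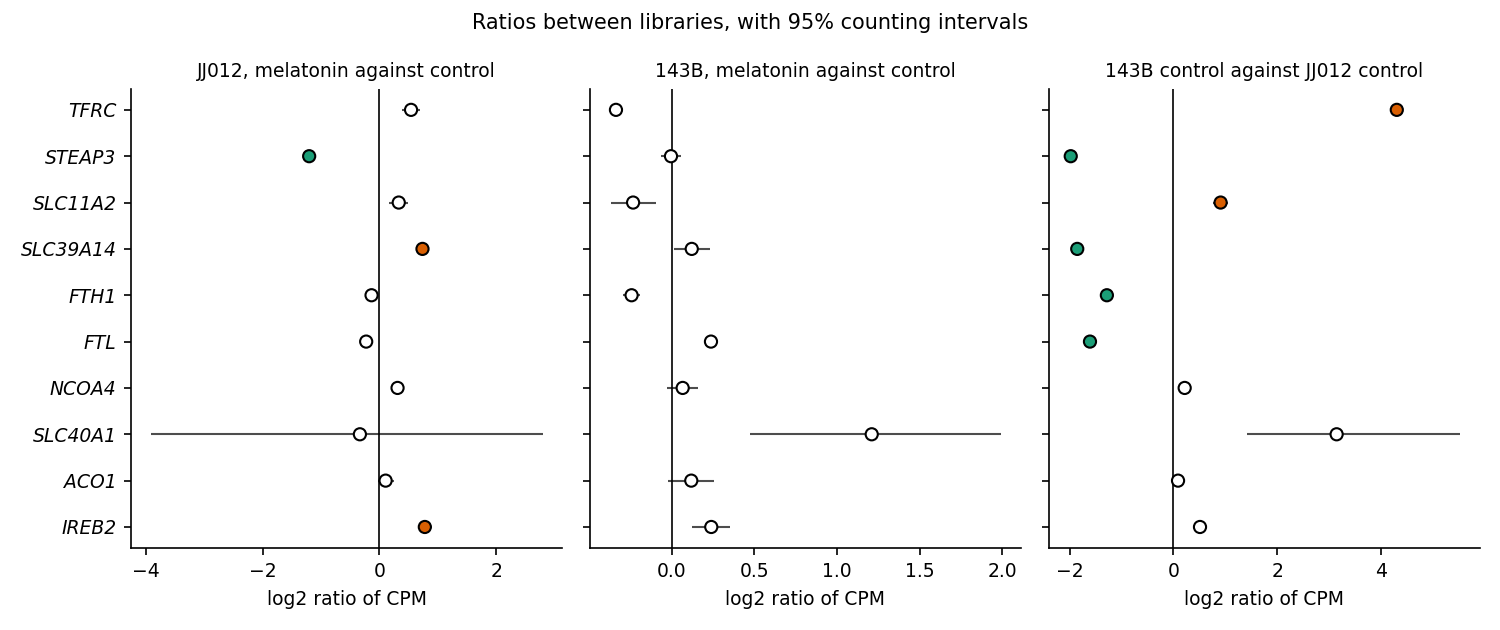
Log2 ratio of CPM for each of the 10 genes in the 3 comparisons, with exact 95% counting intervals (lines, often shorter than the point). The horizontal scales differ. Orange points were called higher and green points lower by the fold threshold, and white points were not called. TFRC is the far point on the right in the comparison of the lines, and SLC40A1 has the widest interval in each panel.

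Genes on the opposite strand held few reads. Whether strand was used in counting is not given in the sources used here. STEAP3-AS1 had 97, 59, 41 and 67 counts in the JJ012 control, JJ012 melatonin, 143B control and 143B melatonin libraries, and BEST1, which overlaps FTH1, had 39, 85, 4 and 2. The antisense gene at NCOA4 had at most 49 counts, and FTL, SLC40A1 and ACO1 had no overlapping gene.

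A list of 85 other genes of iron handling, in 8 groups by function, places the 10 in their pathway. In JJ012, 64 of the 85 were compared, 6 were higher with melatonin and 9 lower, with a median log2 fold change of 0.05, beside 19.6% and 18.6% of all genes compared. On the TPM scale the JJ012 calls were 12 higher and 4 lower, and with TMM they were 6 higher and 5 lower. In 143B, 65 were compared, 1 was higher and 3 lower, with a median of 0.11, beside 6.09% and 6.65% of all genes. With a pseudocount of 0.1 FPKM or in CPM the 143B calls were 6 higher and 3 lower. Between the untreated lines 66 were compared, 9 were higher in 143B and 33 lower, with a median of -0.57, beside 27.4% and 41.3% of all genes. This split was 15 and 21 with median centring, 18 and 23 on the TPM scale, 16 and 21 with TMM and 20 and 19 with the length trend removed, so the excess of lower calls depends on the scaling.

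In JJ012 the iron sensing and heme synthesis groups, with 5 and 10 compared genes, held 6 of the 15 calls. Of all genes compared there, 19.6% were called higher and 18.6% lower, so this number was near the background. Of 5 sensing genes, 2 were higher and 1 lower. EPAS1, the HIF-2α subunit, was at 9.11 and 27.8 FPKM in JJ012 (log2 fold change 1.51, 3.05-fold in CPM) and BACH1, a repressor that senses heme, at 20.2 and 38.6 FPKM (0.90). SKP1, part of the ligase that contains FBXL5, was lower (-0.70). Heme synthesis had 3 of 10 compared genes lower and none higher, where 18.6% of all genes were called lower: UROD, at 13.8 and 7.26 FPKM (-0.84), ALAD (-0.66) and TMEM14C (-0.65). ALAD and TMEM14C lie close to the threshold. The lower calls of the whole list, 9 here, were 5 with TMM and 4 on the TPM scale. ALAS1, the first enzyme of heme synthesis, was not called, at 14.8 and 16.8 FPKM in JJ012.

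The remaining JJ012 calls were spread over the other groups. Among 19 compared genes of mitochondrial iron and iron-sulfur clusters, HSPA9, the mitochondrial chaperone of cluster transfer, was higher, at 42.2 and 70.6 FPKM (0.73), and FDXR and NFU1 were lower (-0.71 and -0.65). The mitochondrial iron importers SLC25A37, at 60.4 and 41.3 FPKM, and SLC25A28, at 6.58 and 7.60 FPKM, were not called in JJ012. None of the 9 cytosolic iron-sulfur genes was called there. Beside these counts, 19.6% of all genes compared in JJ012 were called higher and 18.6% lower. SLC22A17, a lipocalin receptor that takes up iron, was lower, at 6.28 and 2.55 FPKM (-1.04), as was PCBP4, at 13.5 and 8.14 FPKM (-0.67). The heme exporter FLVCR1 was higher (0.67) and BLVRA, a biliverdin reductase, lower (-0.61).

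In 143B the 4 calls of the list were HMOX1, STEAP1, ABCB6 and NUBP1. HMOX1, the inducible heme oxygenase that frees iron from heme, was at 14.8 FPKM in the control and 8.44 FPKM with melatonin (-0.74, 1.75-fold lower in CPM, 1.53 to 2.02). In JJ012 it was at 8.21 and 7.87 FPKM. ABCB6, a porphyrin transporter, was at 6.38 and 3.88 FPKM (-0.60), although the 10 compared genes of heme synthesis had a median of 0.34. NUBP1, of cytosolic iron-sulfur assembly, was called higher from 1.71 to 3.13 FPKM (0.61). EPAS1 was high in both 143B libraries, at 64.0 and 60.7 FPKM, and was not called there. Of the remaining heme genes, ALAS1 was at 19.4 and 21.3 FPKM and the importer SLC46A1 was below 1 FPKM in the 4 libraries.

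Between the untreated lines, 3 groups that hold 39 of the 66 compared genes held 24 of the 33 lower calls. In 143B, 12 of 20 genes of mitochondrial iron and iron-sulfur clusters, 6 of 9 cytosolic iron-sulfur genes and 6 of 10 heme synthesis genes were lower. Of all 16929 genes compared, 41.3% were called lower. The median log2 fold changes of the groups were -0.67, -0.86 and -0.88, against -0.29 for all genes compared. Between the melatonin libraries the same groups had 9 of 21, 4 of 9 and 1 of 10 genes lower, with medians of -0.49, -0.42 and -0.20 against -0.28 for all genes. Of the 16239 genes compared between those libraries, 6299 were called lower. The 33 lower calls of the whole list between the untreated lines were 21 with median centring and 19 with the length trend removed. The groups are given on the FPKM scale alone. TMEM14C, a mitochondrial porphyrin carrier, was at 94.1 FPKM in JJ012 and 10.8 FPKM in 143B (-3.01). NUBP1 was at 11.3 and 1.71 FPKM (-2.18) and CIAO1, of the same cytosolic pathway, at 39.9 and 10.6 FPKM (-1.82). Among genes at 5 FPKM or more, the highest calls in 143B were EPAS1 (2.68), PCBP3, at 1.43 and 5.89 FPKM (1.504), and HMOX1 (0.78). With the melatonin libraries in place of the controls, 7 of 67 genes were higher and 21 lower.

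**Figure D5:**
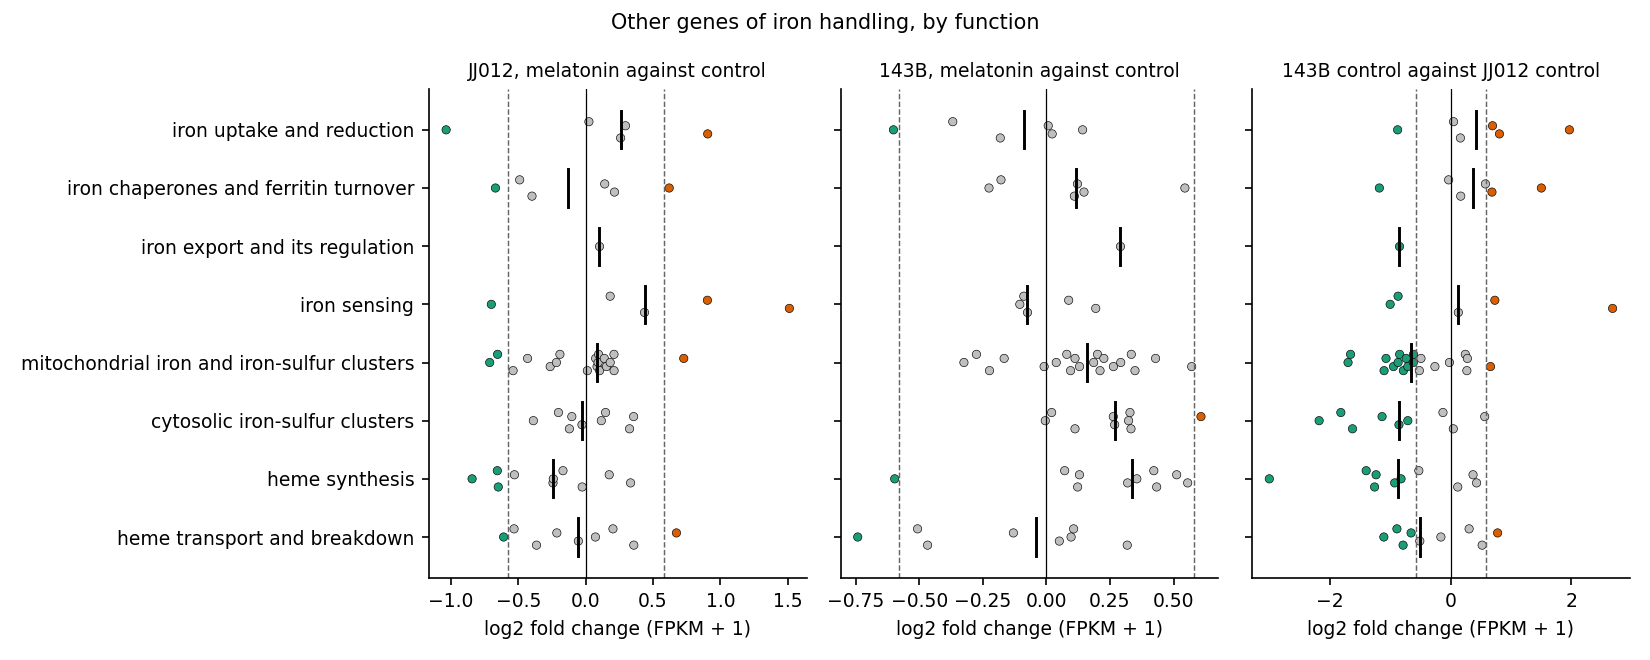
Log2 fold change, on the FPKM + 1 scale, of each compared gene of the 85-gene list by function, in the 3 comparisons. Each point is a gene, orange if called higher, green if called lower and grey otherwise. Black bars are group medians, and dashed lines mark 0.58. The horizontal scales differ, and most points of the 3 iron-sulfur and heme synthesis groups lie left of 0 in the comparison of the untreated lines.

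The scaling of the libraries bears on these counts. Of all genes called in JJ012, 51.4% were higher on the FPKM scale, 57.6% with TMM scaling and 68.8% on the TPM scale, where the median gene moved from 0.01 to 0.27. Between the untreated lines 39.9% of called genes were higher in 143B on the FPKM scale, and 48.7% to 52.2% with the median gene centred, TPM, TMM, DESeq2 size factors or the length trend removed. With the shift of -0.29 in the median gene taken off, TFRC still differed by 4.05 between the untreated lines, STEAP3 by -1.68, SLC39A14 by -1.48, FTL by -1.32, SLC11A2 by 1.02 and FTH1 by -0.99. With the length trend removed these were 3.47, -1.66, -1.70, -0.84, 0.65 and -0.40, the last under the threshold.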

How the data were processed

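RNA was measured in 4 libraries, 1 per condition. The deposited table gives, per the file headers, gene counts and FPKM. The authors' processing notes name cutadapt 1.9.1, HISAT2 2.2.1, HTSeq 0.6.1, DESeq2 and hg38; settings, strand, annotation release and the handling of reads with several matches are not given in the sources used here. Recomputing the deposited FPKM from the deposited counts, exonic lengths and total counts left a difference of at most 0.005. The table held no columns of the authors' comparisons.

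Log2((FPKM + 1)/(FPKM + 1)) was computed for genes with at least 1 FPKM in either library, and called at 0.58, the fold threshold of the study without its FDR, since 1 library per condition allows no test. CPM ratios have exact (Clopper-Pearson) 95% intervals. The calculations were tested on simulated data. Alternatives were a pseudocount of 0.1, no filter, a filter of 5 FPKM, a threshold of 1, median centring, TPM, CPM, TMM (edgeR 4.0.16), DESeq2 1.42.0 size factors and removal of the trend with gene length (running median over 1001 genes); the comparison of melatonin libraries between lines and the use of transcript lengths were chosen after seeing the data. Python 3.11.15 and R 4.3.3 were used. The 10 members and the lists were chosen with earlier results of these data known. Named from the list of 85 were 24 preset partners and, per comparison, the 3 called genes with the largest rise and the 3 with the largest fall at 5 FPKM or more in either library; others were named after their values were seen.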

Additional observations from a re-analysis of the deposited data

Results flagged for a closer look

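For 3 of the 10 iron genes the melatonin library moved one way from its control in JJ012 and the other way in 143B, with counting intervals that left out no change in both lines. The share of all genes that met this rule was not counted, so the 3 cannot be set against a background. The difference between the lines (JJ012 minus 143B, in log2 CPM ratio) was 0.88 for TFRC (0.73 to 1.03), up in JJ012 and down in 143B. It was 0.56 for SLC11A2 (0.35 to 0.77), in the same directions. For FTL it was -0.46 (-0.50 to -0.43), down in JJ012 and up in 143B. None of the 6 changes reached the fold threshold, and with 1 library per condition the differences were not tested. In JJ012, FTL on the TPM scale and both FTL and SLC11A2 with the length trend removed had the other sign, and TFRC was at 0.03, close to no change.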

How the results depend on the processing

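Each condition was 1 library, so no replicate could be left out, and a fit across both lines with the line as a block was not run. Of 198 alternative values of single iron genes, 189 kept their direction and 11 fell on the other side of the fold threshold. In JJ012 the number of the 10 genes called, 3, became 5 on the TPM scale (TFRC at 0.74 and NCOA4 at 0.58 in addition). This number was 2 with the length trend removed and 1 at a threshold of 1. The 15 calls of the wider list in JJ012 became 2 at a threshold of 1. Its 4 calls in 143B became 9 with a pseudocount of 0.1 FPKM, 9 on the TPM scale, 9 in CPM and 0 at a threshold of 1, and its 42 calls between the untreated lines became 18 at a threshold of 1. FTH1 per FTL moved from 0.143, 0.152, 0.179 and 0.128 to 0.234, 0.250, 0.294 and 0.211 with the longest GENCODE 29 transcripts, which replace the lengths alone. The causes of the other shifts were not tested. Of 70 alternatives of the counts of calls and ratios, 58 stayed within the range set for no change. For counts this range compared the total of higher and lower calls and ignored their direction. The 9 higher and 33 lower calls of the wider list between the untreated lines thus counted as unchanged at 20 and 19, with the length trend removed. Depth limits SLC40A1 above all, with 2 to 55 counts.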
